A study of Mus musculus with 2 samples.

Results

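The microtubule and neuronal cytoskeleton genes described here are *Tuba1a*, *Tubb2a*, *Tubb2b*, *Tubb3*, *Dcx*, *Dclk1*, *Map1b*, *Map2*, *Mapt* and *Stmn2*, which encode tubulins and proteins that bind them. They were taken by gene symbol, and all 10 were found among the 32285 genes that each library lists. The data are single-cell RNA sequencing of cerebral cortex at embryonic day (E) 16.5, from control embryos of an Eomes-Cre mouse line, all of the genotype WT. There were 2 libraries, replicate 1 and replicate 2, and no mutant or treated group, so every comparison lies between cell classes of the same libraries. The labels give no strain or sex and do not say whether the WT embryos carried the Cre. The study's supplement names C57BL/6J mice for its E16.5 single-cell data, and how these relate to the Eomes-Cre line is not stated there. Whether a library holds the cells of 1 embryo is not stated. With library as a blocking term, the p-values measure how differences between classes vary over these 2 libraries. That spread is estimated together with the other classes and genes of the same fit. In the cycling comparisons it leans mostly on other genes. Counts are unique molecular identifiers (UMIs), each marking 1 captured RNA molecule near its 3′ end. Over cells with 1500 to 60000 UMIs and under 10% mitochondrial UMIs, the 10 genes held 442407 UMIs (1.13% of all) in replicate 1 and 684478 UMIs (1.15%) in replicate 2.

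Microtubules are hollow polymers of alpha- and beta-tubulin. Radial glial cells (RGCs) need them for the mitotic spindle and for the long fibre along which neurons travel, and migrating neurons need them to pull the nucleus forward and to extend an axon and dendrites. RGCs give rise to intermediate progenitor cells (IPCs), whose daughters become excitatory neurons, while interneurons enter the cortex from the medial and caudal ganglionic eminences (MGE and CGE). Doublecortin (*Dcx*) and its relative *Dclk1* bind and stabilise microtubules in migrating neurons, the MAP proteins bind along the lattice (*Map2* mainly in dendrites, tau, encoded by *Mapt*, mainly in axons, *Map1b* early in growing axons), and stathmin-2 (*Stmn2*) binds free tubulin in growth cones.

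Replicate 1 held 46398156 UMIs in 9049 barcodes and replicate 2 64324236 UMIs in 13556 barcodes. After filters and removal of likely doublets, 5534 and 9136 cells remained, with medians of 5493 and 4728 UMIs, and the libraries shared 15 of these barcodes. *Emx1*, a gene of the dorsal telencephalon, was found in 15.03% and 12.5% of cells. Striatal projection neuron-like cells, whose home lies outside the cortex, made up 10.6% and 10.2% of the cells. Cells were clustered without the 10 genes and without a list of 101 further cytoskeleton genes, and clusters were named "X-like" from marker genes. The classes used are RGC-like (853 cells), IPC-like (778), newborn excitatory neuron-like (1398), upper-layer neuron-like (3116), deep-layer neuron-like (573), MGE interneuron-like (1590) and CGE interneuron-like cells (511). The largest upper-layer cluster, cluster 1, scored nearly as high for newborn neurons, and 2506 cells stayed without a name.

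The tubulins are *Tuba1a* (ENSMUSG00000072235) on chromosome 15 from 98949847 to 98953501, *Tubb2a* (ENSMUSG00000058672) on chromosome 13 from 34074278 to 34078008, *Tubb2b* (ENSMUSG00000045136) on chromosome 13 from 34127008 to 34130354 and *Tubb3* (ENSMUSG00000062380) on chromosome 8 from 123411553 to 123422015. The binding proteins are *Dcx* (ENSMUSG00000031285) on chromosome X from 143855842 to 143933396, *Dclk1* (ENSMUSG00000027797) on chromosome 3 from 55242303 to 55539068, *Map1b* (ENSMUSG00000052727) on chromosome 13 from 99421464 to 99516602, *Map2* (ENSMUSG00000015222) on chromosome 1 from 66175202 to 66442583, *Mapt* (ENSMUSG00000018411) on chromosome 11 from 104229409 to 104332090 and *Stmn2* (ENSMUSG00000027500) on chromosome 3 from 8509527 to 8561604. Positions are those of RefSeq on GRCm38.p6, the assembly called mm10 in the submitters' processing notes. Members of a tubulin family have near-identical coding parts, so their counts depend on how reads that fit several copies were handled, which is not stated for these files.

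Upstream sequence was at hand for 7 of the 10 genes in RefSeq's GRCm38.p6 table. It is printed for 4 whose start there is the outermost start of the gene: *Tubb3* and *Tuba1a*, which were high in every neuron class, and *Tubb2a* and *Map1b*, which were lower in IPCs than in RGCs. Each run gives the 250 bases before the start site, 5′ to 3′ on the gene's strand. Capitals mark CANNTG (the E-box that basic helix-loop-helix factors bind), CCAAT, the GC box GGGCGG and TATAAA, on either strand, with overlapping matches joined.
Tubb3 upstream window, chr8:123411303-123411552, plus strand: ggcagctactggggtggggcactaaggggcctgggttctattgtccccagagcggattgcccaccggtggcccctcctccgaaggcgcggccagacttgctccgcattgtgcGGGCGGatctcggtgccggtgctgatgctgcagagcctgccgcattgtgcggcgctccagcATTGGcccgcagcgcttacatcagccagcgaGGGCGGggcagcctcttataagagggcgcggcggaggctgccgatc
Tuba1a upstream window, chr15:98953502-98953751, minus strand: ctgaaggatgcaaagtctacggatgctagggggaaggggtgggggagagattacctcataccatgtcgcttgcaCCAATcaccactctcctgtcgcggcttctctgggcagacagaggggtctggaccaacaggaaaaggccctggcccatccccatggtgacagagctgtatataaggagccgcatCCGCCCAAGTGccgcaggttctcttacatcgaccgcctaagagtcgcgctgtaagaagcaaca
Tubb2a upstream window, chr13:34078009-34078258, minus strand: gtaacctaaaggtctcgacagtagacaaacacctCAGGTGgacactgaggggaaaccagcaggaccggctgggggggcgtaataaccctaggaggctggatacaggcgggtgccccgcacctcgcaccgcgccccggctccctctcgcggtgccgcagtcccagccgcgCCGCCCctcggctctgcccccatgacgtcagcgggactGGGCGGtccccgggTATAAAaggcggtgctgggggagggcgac
Map1b upstream window, chr13:99516603-99516852, minus strand: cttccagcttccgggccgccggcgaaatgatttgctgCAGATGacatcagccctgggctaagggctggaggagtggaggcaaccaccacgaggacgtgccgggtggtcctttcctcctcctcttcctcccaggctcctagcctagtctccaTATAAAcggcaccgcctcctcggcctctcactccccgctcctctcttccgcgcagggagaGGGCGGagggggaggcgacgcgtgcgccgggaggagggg
Counted back from the start site, *Tubb2a* held TATAAA at position -29 and *Map1b* at -99, and the others held none. GGGCGG began at -138 and -46 in *Tubb3*, at -63 in *Tuba1a*, at -81 and -43 in *Tubb2a* and at -39 in *Map1b*. CCAAT was in *Tubb3* at -77 and in *Tuba1a* at -176. CANNTG lay at -58 in *Tuba1a*, -216 in *Tubb2a* and -213 in *Map1b*. Of all 32851 windows of this length, 66.2% held CANNTG, 33.8% CCAAT, 32.7% GGGCGG and 12.4% TATAAA. These matches describe the letters only.

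Levels are given as counts per 1000000 UMIs (CPM) of the summed cells of a class, replicate 1 first, and compare classes for 1 gene, not genes with each other. They carry no scaling between classes, unlike the fold changes further below, so small differences in level can vanish there. Together the 10 genes took 0.443% ± 0.0150 (SD, n = 2) of all RGC-like UMIs and 0.423% ± 0.0293 of all IPC-like UMIs. The share was 1.01% ± 0.0342 in newborn, 1.57% ± 0.0573 in upper-layer and 1.64% ± 0.00793 in deep-layer neuron-like cells, and 1.19% ± 0.0284 in MGE and 1.36% ± 0.0763 in CGE interneuron-like cells. Layer neurons held the highest share of these 7 classes and both progenitor classes the lowest.

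Among the tubulins, *Tuba1a* was at 1459 and 1651 CPM in RGC-like, 1392 and 1669 CPM in IPC-like and 3810.4 and 3696 CPM in newborn neuron-like cells. Its level was 4868 and 5395 CPM in upper-layer, 4604 and 4841 CPM in deep-layer, 3036 and 3175 CPM in MGE and 3317 and 4074 CPM in CGE neurons. RGC-like and IPC-like cells overlapped, as did newborn neurons and CGE interneurons, and both layer classes lay above all others. *Tubb2a* was at 210.1 and 216 CPM in RGC-like, 49.99 and 61.3 CPM in IPC-like and 103 and 102 CPM in newborn neuron-like cells. Its level was 300.1 and 325 CPM in upper-layer, 515 and 484 CPM in deep-layer, 291 and 305 CPM in MGE and 288 and 287 CPM in CGE neurons. The order ran from IPCs over newborn neurons and RGCs to the deep layers, and only MGE and upper-layer neurons overlapped among neighbours. *Tubb2b* was at 1383 and 1286 CPM in RGC-like, 912 and 996 CPM in IPC-like and 2497 and 2257 CPM in newborn neuron-like cells. Its level was 3141 and 3137 CPM in upper-layer, 3068 and 2921 CPM in deep-layer, 2030.1 and 2161 CPM in MGE and 2333 and 2709 CPM in CGE neurons. IPCs were lowest and upper-layer neurons highest, with newborn neurons and CGE interneurons overlapping. *Tubb3* was at 90.3 and 141 CPM in RGC-like, 305 and 319.7 CPM in IPC-like and 1059 and 951 CPM in newborn neuron-like cells. Its level was 1353 and 1389.7 CPM in upper-layer, 1316 and 1336 CPM in deep-layer, 986 and 947 CPM in MGE and 1100.4 and 1247 CPM in CGE neurons. This beta-tubulin, the one most used as a marker of neurons, was lowest in RGCs and highest in the upper layers, and only MGE and newborn neurons overlapped among neighbours.

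Of the doublecortin family, *Dcx* was at 32.0 and 40.6 CPM in RGC-like, 338 and 367 CPM in IPC-like and 729.6 and 681 CPM in newborn neuron-like cells. Its level was 551 and 499 CPM in upper-layer, 516 and 480.4 CPM in deep-layer, 852 and 823 CPM in MGE and 929 and 827 CPM in CGE neurons. Both interneuron classes, which overlapped each other, lay highest, while the layer classes lay below newborn neurons and also overlapped. *Dclk1* was at 255 and 219 CPM in RGC-like, 99.6 and 88.1 CPM in IPC-like and 300.0 and 258 CPM in newborn neuron-like cells. Its level was 491 and 462 CPM in upper-layer, 628 and 596 CPM in deep-layer, 723 and 661 CPM in MGE and 830.5 and 702 CPM in CGE neurons. IPCs had the lowest level and interneurons, which overlapped, the highest.

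Of the lattice-binding proteins, *Map1b* was at 429.8 and 402 CPM in RGC-like, 219.7 and 213 CPM in IPC-like and 375 and 384 CPM in newborn neuron-like cells. Its level was 1427 and 1408 CPM in upper-layer, 1722 and 1544 CPM in deep-layer, 1184 and 1109.8 CPM in MGE and 1165 and 1079 CPM in CGE neurons. By these unscaled levels newborn neurons lay below RGCs, and all other neuron classes lay above both. The difference between newborn neurons and RGCs was not tested. The fit's scaling factors were 1.13 and 1.14 for RGC-like and 1.01 and 1.04 for newborn neuron-like cells. The interneuron classes overlapped. *Map2* was at 313 and 328 CPM in RGC-like, 506 and 480.3 CPM in IPC-like and 847 and 786 CPM in newborn neuron-like cells. Its level was 963 and 962 CPM in upper-layer, 1169.6 and 1163 CPM in deep-layer, 1265 and 1243 CPM in MGE and 1495 and 1408 CPM in CGE neurons. No neighbours in this order overlapped, from RGCs at the bottom to CGE interneurons at the top. *Mapt* was at 48.2 and 64.5 CPM in RGC-like, 82.1 and 69.0 CPM in IPC-like and 119 and 133 CPM in newborn neuron-like cells. Its level was 622 and 692 CPM in upper-layer, 901 and 936 CPM in deep-layer, 448 and 499 CPM in MGE and 428 and 479 CPM in CGE neurons. Deep-layer neurons were highest, and only the interneuron classes overlapped among neighbours. *Stmn2* was at 108 and 193 CPM in RGC-like, 122 and 177 CPM in IPC-like and 507 and 618 CPM in newborn neuron-like cells. Its level was 1609.7 and 1865 CPM in upper-layer, 1947 and 2198 CPM in deep-layer, 857 and 1148 CPM in MGE and 1191 and 1344 CPM in CGE neurons. RGC-like and IPC-like cells overlapped at the bottom, and deep-layer neurons lay at the top. Replicate 2 was above replicate 1 in all 7 classes.

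**Figure D1:**
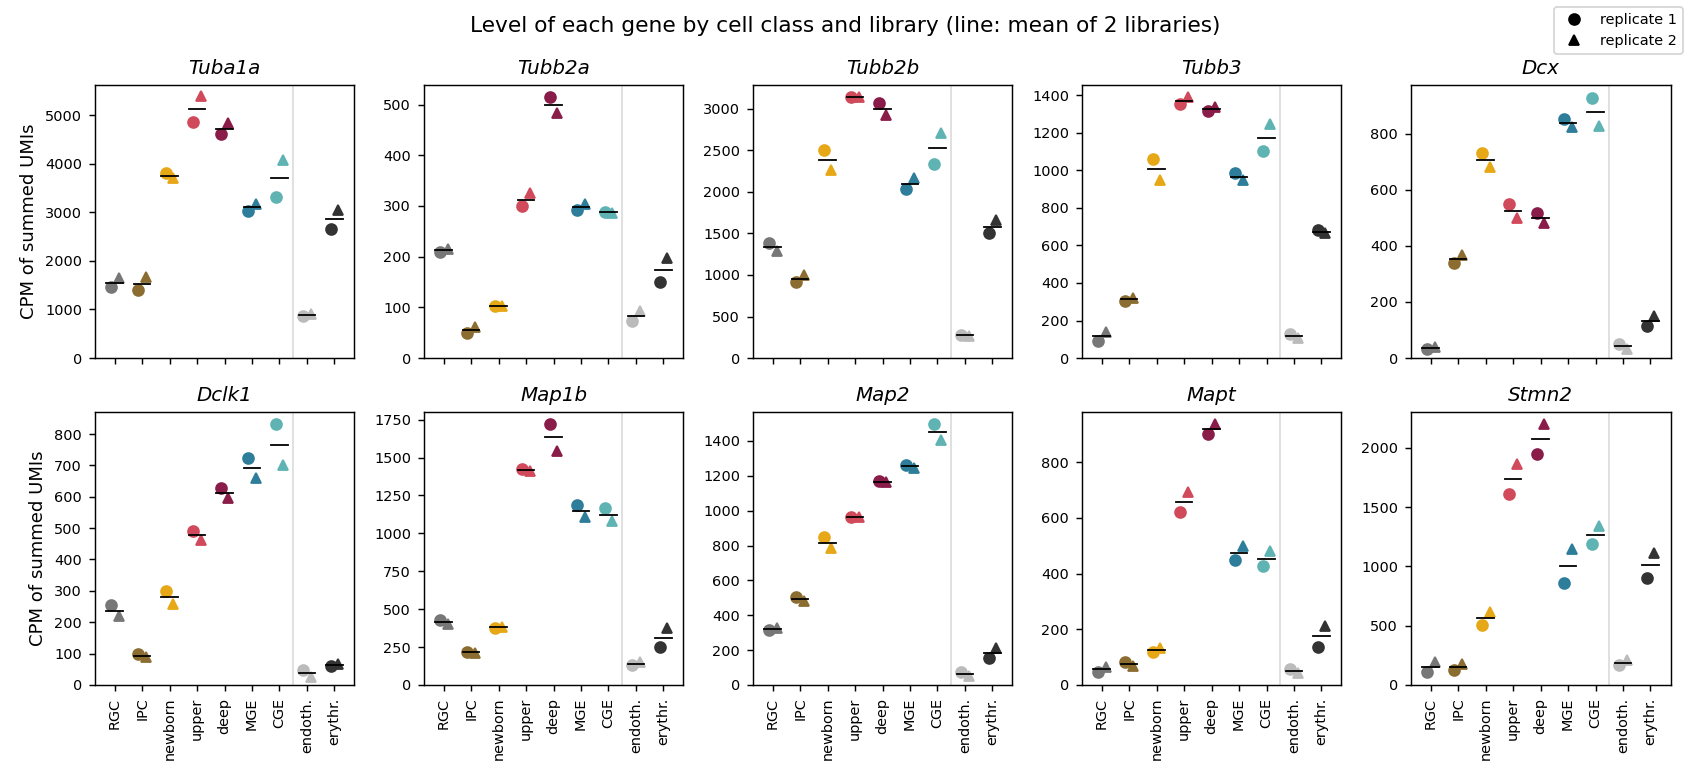
Level of each gene (CPM of summed UMIs, linear axis from 0) in 7 neural classes and, right of the grey line, in endothelial-like and erythroid-like cells, with 1 circle for replicate 1, 1 triangle for replicate 2 and a line at their mean. *Dcx* peaks in interneurons, at 929 and 827 CPM in the CGE class, and *Mapt* in deep-layer neurons, at 901 and 936 CPM, while *Tubb2a*, *Dclk1* and *Map1b* dip in IPCs.

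Droplets also hold free RNA, so the levels of 4 genes known for their expression in neurons were set beside non-neural cells. In endothelial-like cells, *Stmn2* was at 169 and 208 CPM, *Tubb3* at 127 and 107 CPM, *Mapt* at 55.7 and 44.5 CPM and *Dcx* at 51.2 and 32.2 CPM. The RGC-like levels of these 4 genes lay at or near these values, so they cannot be told from background there. With each cell thinned to 1500 UMIs, 6.06 and 7.01% of RGC-like cells held a *Dcx* UMI against 9.52 and 5.88% of endothelial-like cells, whose median depths before thinning were 7424 and 4865 UMIs against 9199 and 6962. Unthinned, the shares were 19.2 and 17.6% and, in the endothelial-like cells, 26.2 and 11.8%. *Stmn2* in IPCs lay below their level too, so fold changes of *Stmn2* against IPCs, and those of *Dcx*, *Tubb3*, *Mapt* and *Stmn2* against RGCs, are taken against levels that cannot be told from background. Every cell type uses tubulins, so the endothelial level of *Tubb2a*, 73.5 and 92.0 CPM, is no such measure, and IPCs lay below it. *Dclk1*, *Map1b*, *Map2*, *Tuba1a* and *Tubb2b* in RGCs lay above their endothelial levels, for *Map1b* at 131 and 150.2 CPM and for *Dclk1* at 49.0 and 24.5 CPM. In erythroid-like cells, however, 5 of the 10 genes were above both progenitor classes in both libraries: *Tuba1a* at 2665 and 3039 CPM, *Tubb2b* at 1501 and 1659 CPM, *Tubb3* at 685 and 664 CPM, *Mapt* at 138 and 213 CPM and *Stmn2* at 902 and 1114 CPM. *Mapt* and *Stmn2* were there also above newborn neurons, as was *Tubb2a* at 149.6 and 198 CPM. Erythroid *Map1b*, at 24.3% and 38.3% of its whole-library level in replicates 1 and 2, was above IPCs in both. The progenitor levels of those 5 genes and the IPC level of *Map1b* were thus not above every non-neural class. The same holds for the newborn levels of *Mapt*, *Stmn2* and *Tubb2a*. Fold changes of *Map1b* against IPCs carry this limit too. The erythroid levels of *Stmn2* and *Tuba1a* also overlapped those of MGE interneurons.

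Erythroid-like cells, which carry the globin genes, held more of some members than others. Their *Stmn2* level was 89.2% and 91.0% of that of the whole library in replicates 1 and 2, and that of *Tuba1a* 75.6% and 78.7%. *Dclk1* reached only 13.3% and 16.1% and *Dcx* 21.4% and 30.8%. The level differed between the 2 erythroid clusters: cluster 16 (434 cells) held *Stmn2* at 1222 and 1428 CPM and cluster 21 (90 cells) at 150.4 and 169 CPM. These levels are shares of all UMIs, globin UMIs included, and against the other RNA alone they would be higher. The fit's scaling factors for erythroid-like cells were 0.350 and 0.373, where 1 means no scaling. The part of free RNA in these levels was not tested.

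The first comparison asks how the genes differ between the 2 cortical progenitor types. From RGC-like to IPC-like cells, 4 of the 10 genes were higher and 3 lower by edgeR's quasi-likelihood test at a Benjamini-Hochberg adjusted p under 0.05 over all genes, where 32.4% of genes passed in either direction. *Dcx* rose the most, by a log2 fold change of 3.33 ± 0.19, adjusted p = 6.23e-18, and its groups did not overlap. *Tubb3* rose by 1.49 ± 0.15, adjusted p = 1.09e-10, *Map2* by 0.69 ± 0.13 and *Mapt* by 0.48 ± 0.15, and of these *Dcx*, *Tubb3* and *Mapt* are folds over RGC levels that cannot be told from background. *Tubb2a* changed in the opposite direction (-1.86 ± 0.16, adjusted p = 1.68e-12), with *Dclk1* (-1.26 ± 0.15, adjusted p = 5.75e-09) and *Map1b* (-0.87 ± 0.15, adjusted p = 1.06e-05). In none of these 3 did the values of the classes overlap. *Tubb2b* (-0.42 ± 0.20, adjusted p = 0.112), *Tuba1a* (0.04 ± 0.21, adjusted p = 0.906) and *Stmn2* (0.07 ± 0.15, adjusted p = 0.786) did not pass. The *Mapt* call ended in edgeR with the size factors DESeq2 uses, without replicate 1 and with cycle scores kept, though not in DESeq2 itself, and its value was -0.11 with no doublets removed. With those size factors, 33.5% of all calls were higher, against 43.6% as reported.

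From IPC-like to newborn neuron-like cells, all 10 genes were higher, where 13.8% of all genes were called higher and 28.2% in either direction. No gene's groups overlapped. *Stmn2* had the largest difference (1.99 ± 0.14, adjusted p = 1.28e-14), followed by *Tubb3* (1.77 ± 0.14, adjusted p = 8.03e-14) and *Dclk1* (1.65 ± 0.15, adjusted p = 4.15e-12). The smallest was that of *Map2* (0.81 ± 0.12, adjusted p = 1.26e-06), with *Mapt* (0.82 ± 0.13), *Map1b* (0.89 ± 0.15) and *Tubb2a* (0.95 ± 0.17) close to it. *Tubb2b* (1.40 ± 0.20), *Tuba1a* (1.38 ± 0.21) and *Dcx* (1.07 ± 0.15) lay between. The median over the 10 genes was 1.23 and over all genes 0.02.

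From newborn to upper-layer neuron-like cells, 6 genes were higher and 1 lower, where 28.0% of all genes passed. Tau and *Map1b*, the axonal binding proteins, were among the most changed: *Mapt* rose by 2.38 ± 0.12, adjusted p = 6.55e-20, and *Map1b* by 1.90 ± 0.14, adjusted p = 2.84e-14. *Stmn2* rose by 1.63 ± 0.13, adjusted p = 2.51e-13 and *Tubb2a* by 1.60 ± 0.14, adjusted p = 1.30e-12. The gains of *Dclk1* (0.77 ± 0.13, adjusted p = 5.71e-06) and *Tubb3* (0.44 ± 0.13, adjusted p = 0.00721) were smaller. *Dcx* was the only one that fell (-0.43 ± 0.14, adjusted p = 0.0166), so that the 2 members of the doublecortin family went in opposite directions here. The difference between them was not tested. *Tuba1a*, *Tubb2b* and *Map2* did not pass, at 0.44 ± 0.21, 0.39 ± 0.20 and 0.23 ± 0.12. The calls of *Dcx* and *Tubb3* ended in the fit with no replicate block and without either replicate, that of *Dcx* also in DESeq2 and that of *Tubb3* also with no doublets removed.

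The upper-layer clusters were not alike. Cluster 1 held *Mapt* at 420.5 and 433 CPM, cluster 10 at 712 and 771 CPM and cluster 3 at 830.2 and 898 CPM. *Map1b* followed the same order, at 1046 and 1014, 1537 and 1418 and 1853 and 1783 CPM, and so did *Tubb2a*, at 182 and 190.5, 373 and 362 and 412 and 436 CPM. *Dcx* was highest in cluster 1, at 592 and 549 CPM. Cluster 1, the one that scored nearly as high for newborn neurons, thus lay between the newborn class and the other upper-layer clusters for these 3 rising genes. These are values with no test.

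Between deep-layer and upper-layer neuron-like cells, 3 genes were higher in the deep layers and none lower, where 18.0% of all genes passed. These were *Tubb2a* (0.68 ± 0.13, adjusted p = 7.61e-05), *Mapt* (0.49 ± 0.11, adjusted p = 5.36e-04) and *Dclk1* (0.36 ± 0.13, adjusted p = 0.0386), with no overlap of their groups. The *Dclk1* call also ended in DESeq2, with no filter on low counts, with no replicate block, with no doublets removed and without either replicate. The other 7 lay between -0.12 and 0.28. All 3 calls ended when cells were chosen by marker UMIs in place of clusters, where *Tubb2a* was at -0.16, *Dclk1* at -0.10 and *Mapt*, called as lower, at -0.39. With those gates all 10 genes had lower levels in the deep layers, and 7 of them were called as lower, where 21.1% of all genes passed in either direction, so the direction of this comparison depends on how the cells were chosen. Of the 791 cells in the deep-layer gate, 29.2% were in the deep-layer class. Without replicate 1 in these classes 1 gene was called. With DESeq2 size factors the count was 5, and 67.8% of all calls were higher in the deep layers, against 56.3% as reported.

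From RGCs to the mean of upper- and deep-layer neurons, all 10 genes were higher, where 28.3% of all genes were called higher and 59.4% in either direction. *Dcx* (3.94 ± 0.18, adjusted p = 4.09e-22), *Mapt* (3.92 ± 0.13, adjusted p = 8.21e-27), *Stmn2* (3.82 ± 0.14, adjusted p = 1.02e-24) and *Tubb3* (3.68 ± 0.14, adjusted p = 4.52e-24) had the largest differences, and these are the 4 genes whose RGC level lay at or near the endothelial level. The 6 others ranged from 1.04 for *Tubb2a* to 2.02 for *Map1b*. No gene's groups overlapped.

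**Figure D2:**
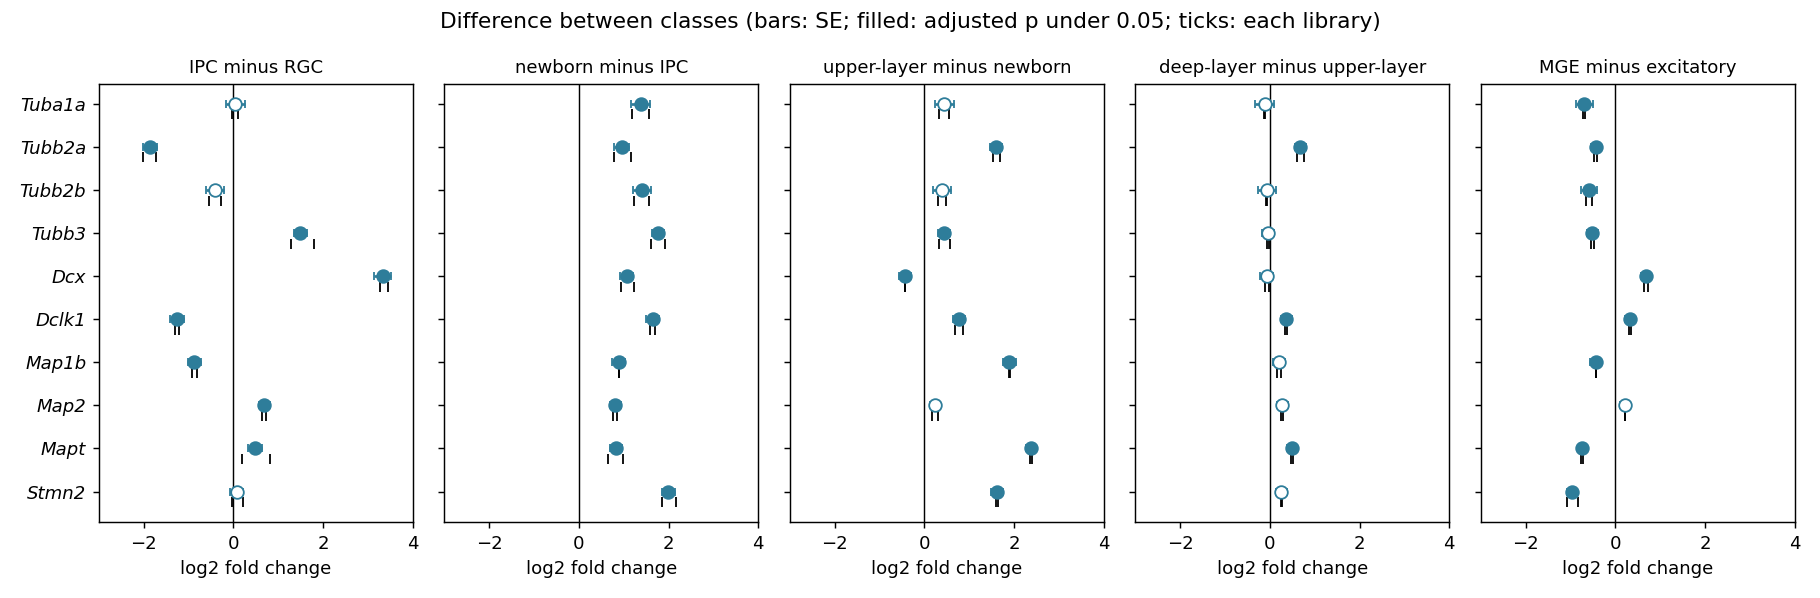
Log2 fold change of each gene in 5 comparisons, with bars for its standard error (SE), filled points for an adjusted p under 0.05 and black ticks for the value in each of the 2 libraries. All 10 points lie right of 0 from IPCs to newborn neurons, and *Tubb2a* (-1.86), *Dclk1* (-1.26) and *Map1b* (-0.87) lie left of 0 from RGCs to IPCs.

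Interneurons reach the cortex by tangential migration, and the next comparison sets them against excitatory neurons, again the mean of both layer classes. In MGE interneuron-like cells, 2 genes were higher and 7 lower, where 31.3% of all genes passed. *Dcx* was higher by 0.68 ± 0.12, adjusted p = 1.53e-05, and *Dclk1* by 0.33 ± 0.11, adjusted p = 0.018, a call that ended in DESeq2, with no replicate block and without either replicate. All 4 tubulins were lower: *Tuba1a* (-0.69 ± 0.19, adjusted p = 0.0036), *Tubb2b* (-0.58 ± 0.18, adjusted p = 0.00999), *Tubb3* (-0.51 ± 0.11, adjusted p = 4.76e-04) and *Tubb2a* (-0.44 ± 0.12, adjusted p = 0.00295). *Stmn2* (-0.96 ± 0.12, adjusted p = 7.76e-09), *Mapt* (-0.74 ± 0.10, adjusted p = 3.94e-08) and *Map1b* (-0.44 ± 0.12, adjusted p = 0.00436) were lower too, and *Map2* did not pass (0.21 ± 0.10, adjusted p = 0.116). The *Map1b* call ended with no replicate block, with no doublets removed and without either replicate. Those of the 4 tubulins ended without either replicate and that of *Dcx* without replicate 2. Only the calls of *Mapt* and *Stmn2* held in every setting run. No gene's groups overlapped against the mean of both layer classes. *Tubb2a* in MGE interneurons overlapped upper-layer neurons taken alone. With replicate 1 left out of these classes 3 genes were called and, with replicate 2 left out, 2, with 1 sum left for each class.

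Between the MGE and CGE classes, 0 of the 10 genes passed in edgeR and 0 in DESeq2, where 6.71% of all genes passed in edgeR. At an unadjusted p under 0.05 there were 2 in edgeR, *Stmn2* and *Tubb3*, and 2 in DESeq2. The values ran from -0.34 for *Stmn2* (SE 0.13) to 0.07 for *Mapt* (SE 0.12). With only these classes in the fit 4 genes passed, all lower in the MGE class (*Tuba1a*, *Tubb2b*, *Tubb3* and *Stmn2*), where 10.8% of all genes passed. With marker gates 2 others passed, both higher (*Tubb2a* and *Mapt*), where 12.4% of all genes passed.

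Inside the MGE class, the clusters and the cells with *Sst*, the neuropeptide gene of the interneurons the study is about, were compared as values with no test. Cluster 4 held *Mapt* at 573 and 591 CPM and *Tuba1a* at 2101 and 2657 CPM, and cluster 8 held them at 345 and 392 and 3802 and 3782 CPM, so the 2 genes were in opposite order. The 127 cells with at least 2 *Sst* UMIs held *Mapt* at 700.0 and 786 CPM, against 416 and 456 CPM in the 1297 cells with none. *Stmn2* was at 1194 and 1903 against 823 and 1041 CPM, and *Tubb2a* at 462 and 399.7 against 266 and 288 CPM. *Dcx* went the other way, at 691 and 749 against 854 and 832 CPM. Cells with *Sst* were deeper, with medians of 3718 and 4673 against 2977 and 3184 UMIs, and the part of depth was not tested.

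Progenitors need microtubules for the spindle, so cells called S or G2M from cycle gene scores (cycling) were compared with cells called G1 (non-cycling) within each class. These are score calls, not a measured state: they also took in 11.6% of MGE interneuron-like, 12.9% of CGE interneuron-like and 2.31% of upper-layer neuron-like cells. There were 183 and 305 cycling against 114 and 251 non-cycling RGC-like cells, and 79 and 161 against 220 and 318 IPC-like cells. The RGC-like class is 1 cluster. In RGC-like cells, 3 genes were higher in cycling cells and 4 lower, where 27.9% of genes passed. *Tubb2a* was at 227 and 237 CPM in cycling and 175 and 188 CPM in non-cycling cells (0.36 ± 0.11, adjusted p = 0.00471). *Map1b* (0.30 ± 0.08, adjusted p = 0.00156) and *Tubb2b* (0.22 ± 0.06, adjusted p = 0.00303) were higher as well. *Dclk1* fell from 336 and 299 CPM to 214 and 160.3 CPM (-0.77 ± 0.10, adjusted p = 1.21e-13), and *Mapt*, whose RGC level cannot be told from background, was lower (-0.74 ± 0.18, adjusted p = 2.40e-04), with smaller differences for *Map2* (-0.22 ± 0.09, adjusted p = 0.0466) and *Tuba1a* (-0.16 ± 0.06, adjusted p = 0.0324). Only the *Tuba1a* groups overlapped among these 7. Of these calls only that of *Dclk1* held in every setting run, and the other 6 ended in DESeq2, where 5.97% of all genes passed. With no doublets removed, the calls of *Tuba1a*, *Tubb2a*, *Tubb2b*, *Map1b* and *Map2* ended too, and with no replicate block those of *Tuba1a*, *Tubb2b* and *Map2*. The *Map2* call ended as well with DESeq2 size factors, with no filter on low counts, at the lower cluster resolution and with cycle scores kept, and that of *Tuba1a* with no filter.

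The IPC-like class joins cluster 18, with 192 cells that were all called cycling, and cluster 9, with 586 cells of which 8.19% were, so its comparison by cycling is largely 1 of cluster 18 with cluster 9, and the 2 cannot be told apart. In IPC-like cells none was higher and 4 were lower in cycling cells, where 32.6% of genes passed. *Dcx* was at 224 and 284 CPM in cycling and 390.3 and 418 CPM in non-cycling cells (-0.60 ± 0.09, adjusted p = 2.78e-07). *Tubb3* (-0.35 ± 0.10, adjusted p = 0.00404), *Tubb2b* (-0.25 ± 0.06, adjusted p = 0.00172) and *Map2* (-0.22 ± 0.08, adjusted p = 0.0244) were lower too, and no groups of these 4 overlapped. Of these calls only that of *Dcx* held in every setting run. Those of *Tubb3*, *Tubb2b* and *Map2* ended in DESeq2, where 7.97% of all genes passed, and with no replicate block, and those of *Tubb2b* and *Map2* also with no doublets removed. The *Tubb3* difference was -0.67 in replicate 1 and -0.11 in replicate 2. *Tubb2b* had opposite signs in RGCs and IPCs, with both calls lost in those 3 settings. A test of that difference over both classes, in which 3.15% of genes passed, gave 0.49 ± 0.12 (adjusted p = 0.0301), and no other gene of the 10 passed it. That test was run in no other setting. The nearest was *Dclk1* (-0.62 ± 0.17, adjusted p = 0.056). DESeq2 called 1 gene in RGCs and 1 in IPCs, and the fit with no replicate block called 4 and 1.

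**Figure D3:**
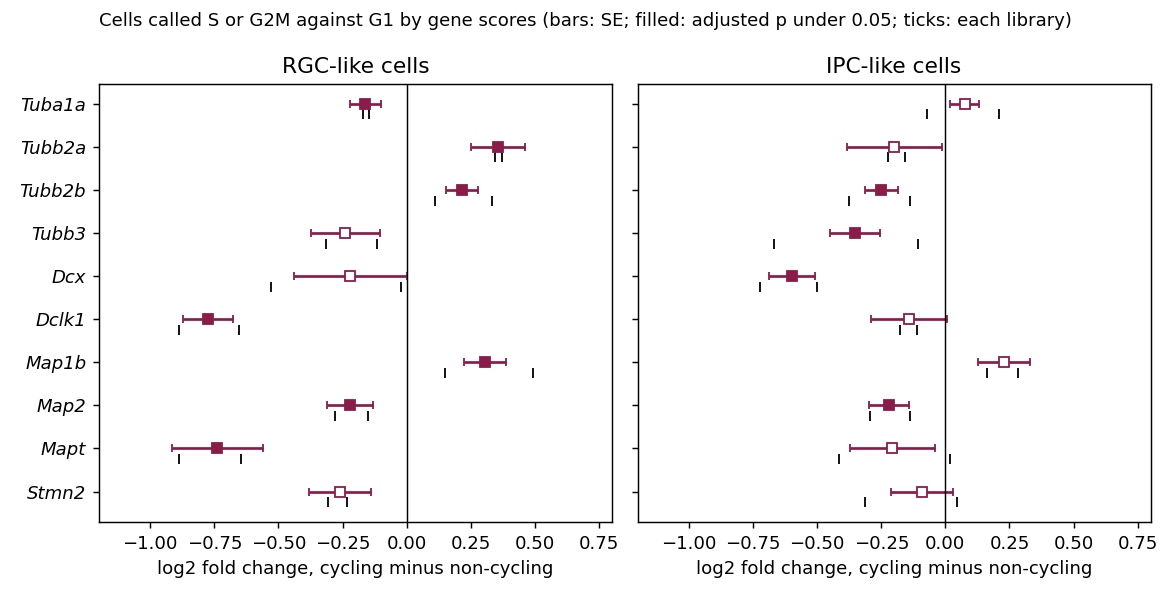
Log2 fold change of each gene between cells called cycling and non-cycling from gene scores in 2 progenitor classes, with SE bars, filled squares for an adjusted p under 0.05 and black ticks for each library. *Tubb2b* lies right of 0 in RGC-like cells (0.22) and left of 0 in IPC-like cells (-0.25).

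Within a tubulin family, each isotype can be read as a share of the family's UMIs, a scale that does not correct for capture. Of the alpha-tubulins, *Tuba1b* took 16.4% ± 1.70 (SD, n = 2) of the UMIs in RGCs and 11.7% ± 0.472 in IPCs, but 2.04% ± 0.285 in newborn and 1.79% ± 0.0464 in upper-layer neurons, where *Tuba1a* took 98.1% ± 0.0472. Of the beta-tubulins, *Tubb5* went from 37.2% ± 0.0334 in RGCs to 49.5% ± 0.452 in IPCs and was 37.1% ± 0.450 in newborn and 31.8% ± 0.434 in deep-layer neurons. *Tubb3* had 3.75% ± 1.23 in RGCs, 10.8% ± 0.232 in IPCs and 17.6% ± 0.289 in newborn neurons, and 18.5% ± 0.227 in upper-layer neurons. *Tubb2a* had 6.88% ± 0.253 in RGCs, 1.91% ± 0.171 in IPCs, 1.80% ± 0.0972 in newborn and 6.88% ± 0.198 in deep-layer neurons. *Tubb2b* lay between 32.8% ± 0.260 in IPCs and 43.1% ± 1.49 in RGCs. Shares carry no test.

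**Figure D4:**
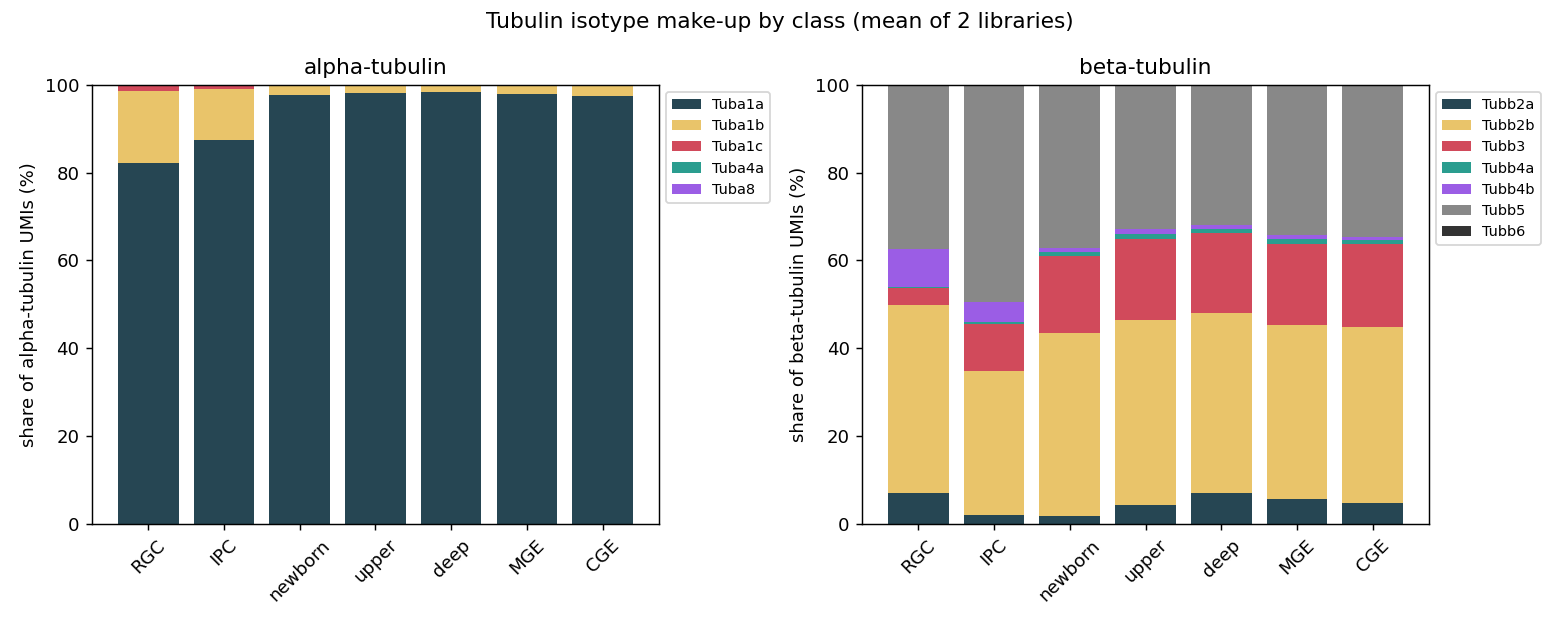
Share of each isotype in the UMIs of its tubulin family (stacked bars from 0 to 100%, mean of 2 libraries) in 7 classes, alpha-tubulins on the left and beta-tubulins on the right. *Tuba1b* has 16.4% in RGCs and 2.04% in newborn neurons, and *Tubb5* is widest in IPCs.

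The 101 other cytoskeleton genes of the list were read from the same fits. From RGCs to IPCs 28 were higher and 16 lower of 96 tested (45.8% called, 32.4% over all genes). The largest rises were those of *Kif21b* (3.60 ± 0.20), *Crmp1* (1.78 ± 0.17) and *Dpysl5* (1.77 ± 0.16), a kinesin and 2 collapsin response mediators that guide growth cones. The largest falls were those of *Nes* (-2.39 ± 0.17), *Vim* (-1.38 ± 0.14) and *Fignl1* (-0.98 ± 0.25), and *Nes* and *Vim* are the intermediate filaments of RGCs. From IPCs to newborn neurons 47 were higher and 14 lower of 96 tested (63.5% called, 28.2% over all genes), with *Kif5a* (2.17 ± 0.17), *Tubb4a* (1.89 ± 0.21) and *Dpysl3* (1.73 ± 0.13) rising most and *Vim* (-3.20 ± 0.16), *Tuba1c* (-3.12 ± 0.47) and *Fignl1* (-3.10 ± 0.38) falling most. *Fignl1* had 9 and 6 UMIs in newborn neurons, and its log2 difference was -2.51 in replicate 1 and -3.77 in replicate 2. All 3 other stathmins and 7 of 9 tubulin-modifying enzymes rose, where 13.8% of all genes were called higher. Other groups of the list did not: of 9 other tubulins 3 rose and 4 fell, and of 6 tubulin folding genes 1 rose. Of 6 severing genes 1 rose and 1 fell, and of 5 intermediate filament genes 1 rose and 2 fell.

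From newborn to upper-layer neurons 30 were higher and 8 lower of 96 tested (39.6% called, 28.0% over all genes). *Dync1i1*, an intermediate chain of the dynein motor, went from 4.21 and 4.70 CPM to 346 and 378 CPM. It stood with the neurofilament genes among *Dync1i1* (6.32 ± 0.21), *Nefl* (2.56 ± 0.34) and *Nefm* (2.35 ± 0.22), and the largest falls were those of *Fign* (-2.45 ± 0.24), *Kif21b* (-0.93 ± 0.10) and *Kif21a* (-0.90 ± 0.10). *Nefl* rested on 14 and 14 UMIs in newborn neurons, with 1.91 in replicate 1 and 3.10 in replicate 2. All 5 collapsin response mediators rose, where 28.0% of all genes were called in either direction. Of 6 severing genes 0 rose and 3 fell, and of 6 tubulin folding genes 1 rose. Of 8 dynein and LIS1 genes 1 rose, and of 12 growth cone and actin genes 2 rose and 1 fell. Deep-layer against upper-layer neurons gave 12 higher and 7 lower of 96 tested (19.8% called, 18.0% over all genes), led by *Kif26a* (5.64 ± 0.20), *Dpysl4* (2.18 ± 0.18) and *Ina* (1.76 ± 0.12) and by *Tbcc* (-0.94 ± 0.18), *Tubb4a* (-0.68 ± 0.15) and *Kif21a* (-0.58 ± 0.11). In layer neurons against RGCs 63 were higher and 17 lower of 96 tested (83.3% called, 59.4% over all genes), with *Dync1i1* (6.98 ± 0.21), *Ina* (4.18 ± 0.17) and *Kif21b* (3.98 ± 0.18) highest and *Vim* (-5.25 ± 0.13), *Nde1* (-5.08 ± 0.25) and *Fign* (-4.30 ± 0.27) lowest. *Nde1* binds dynein and acts in the spindle of progenitors. It had 14 and 49 UMIs in the layer neurons and a log2 difference of -5.81 in replicate 1 and -4.73 in replicate 2. In RGCs *Dync1i1* rested on 9 and 21 UMIs and *Kif21b* on 12 and 28. The log2 difference of *Dync1i1* was 7.48 in replicate 1 and 6.72 in replicate 2, and that of *Kif21b* 4.48 and 3.70.

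In MGE interneurons against layer neurons 10 were higher and 31 lower of 96 tested (42.7% called, 31.3% over all genes). *Dclk2*, another gene of the doublecortin family, was at 583 and 459.8 CPM against 134 and 116 CPM and was 1 of the 3 highest, *Fign* (2.29 ± 0.40), *Dclk2* (2.03 ± 0.10) and *Pfn2* (1.22 ± 0.10), and the lower genes were led by *Dync1i1* (-5.06 ± 0.17), *Nefl* (-2.44 ± 0.32) and *Map6* (-1.67 ± 0.15). MGE against CGE gave 4 higher, led by *Tubg2* (1.79 ± 0.51), *Map7d2* (1.58 ± 0.31) and *Dclk2* (0.79 ± 0.12), and 5 lower, led by *Fign* (-1.63 ± 0.32), *Vim* (-0.75 ± 0.20) and *Dpysl4* (-0.65 ± 0.19), of 96 tested (9.38% called, 6.71% over all genes). *Tubg2* had 1 and 7 UMIs in the CGE class, and its log2 difference was 3.31 in replicate 1 and 1.36 in replicate 2. That of *Fign* was -0.81 in replicate 1 and -2.06 in replicate 2. In cycling RGC-like cells 16 were higher and 12 lower of 88 tested (31.8% called, 27.9% over all genes), with *Fignl1* (4.10 ± 0.37), *Tuba1c* (4.05 ± 0.45) and *Nde1* (2.25 ± 0.19) and, in the other direction, *Ttll7* (-1.62 ± 0.46), *Kif5a* (-1.29 ± 0.45) and *Fign* (-0.95 ± 0.19). DESeq2 called 8 of the list, and 64.6% of its calls over all genes were higher, against 51.1% in edgeR. The non-cycling side held 3 and 4 UMIs of *Fignl1* and 2 and 3 of *Tuba1c*. In cycling IPC-like cells 18 were higher and 18 lower of 87 tested (41.4% called, 32.6% over all genes), led by *Tuba1c* (5.03 ± 0.49), *Fignl1* (4.65 ± 0.40) and *Tuba1b* (3.47 ± 0.11) and by *Tubb4a* (-1.66 ± 0.46), *Ttll7* (-1.47 ± 0.32) and *Ttll1* (-1.45 ± 0.36). DESeq2 called 11 of the list and the fit with no doublets removed 9 (over all genes 7.97% and 5.88%), and 77.2% of the DESeq2 calls over all genes were higher, against 56.8% in edgeR. *Tubb4a* rested on 2 and 9 UMIs in cycling cells, at a log2 difference of -3.31 in replicate 1 and -0.72 in replicate 2. *Tuba1c* had 1 and 3 UMIs in non-cycling cells and a log2 difference of 6.35 in replicate 1 and 4.34 in replicate 2, and *Fignl1* 2 and 5 UMIs and 5.39 in replicate 1 and 4.32 in replicate 2. *Tuba1b* went from 45.9 and 47.2 CPM to 505 and 486 CPM with cycling in IPCs, where *Tuba1a* did not pass (0.07 ± 0.06, adjusted p = 0.336) but was called as lower with no doublets removed (-0.36).

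For each member the 3 genes with the most similar levels over 15 classes were found among 7596 genes by Pearson's r of log2(CPM + 1), as a description over classes that share libraries. For *Dcx* they were *Nsg2* (0.97), *Celf3* (0.97) and *Scrt1* (0.96), and for *Dclk1* *Fgf14* (0.95), *D630045J12Rik* (0.94) and *Macrod2os1* (0.94). *Tuba1a* was closest to *Stmn3* (0.96), *Nsg1* (0.96) and *Aplp1* (0.95), *Tubb2b* to *Rtn1* (0.96), *Sept3* (0.95) and *Gm1673* (0.95), and *Tubb2a* to *Ly6h* (0.91), *Gm20642* (0.89) and *Gm21798* (0.89). *Tubb3* was closest to *Crmp1* (0.99), *Mllt11* (0.98) and *Stmn3* (0.98), the first a collapsin response mediator and the last a stathmin. The MAP genes gave *Lrrtm1* (0.96), *Shank1* (0.96) and *Trim67* (0.96) for *Map1b*, *Soga3* (0.97), *Jakmip2* (0.97) and *Phactr3* (0.97) for *Map2* and *Psd* (0.97), *Stk32b* (0.97) and *Dpf1* (0.97) for *Mapt*. *Stmn2* was closest to *Stmn4* (0.96), *Psd* (0.95) and *Ina* (0.94), of which the first is a stathmin and the last a neuronal intermediate filament.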

How the data were processed

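The authors deposited for every barcode the raw UMI counts of each gene (10x Genomics 3′ v3.1 chemistry, papain-dissociated cortex), with no normalization. Counting used Cell Ranger, version 7.1.0 per the file headers and 7.0.0 per the submitters' processing notes, on mm10. Whether intronic reads were counted is not given in the sources used here.

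The steps below start from these counts. Scrublet in scanpy 1.11.5 scored doublets per library. Its automatic threshold marked 0 and 251 cells and had thus not worked in replicate 1, so the top-scoring 0.8% per 1000 barcodes were removed (432 and 1111 cells). Leiden clustering (leidenalg 0.10.2, resolution 1) used 2000 variable genes without the cytoskeleton genes, 30 components and 20 neighbours, with cycle scores regressed out within each library, and gave 26 clusters. A name needed a mean marker z-score of at least 1, 3 markers in at least 10% of cells, and its own markers leading. UMIs were summed per library and class, and the 15 classes that had 20 or more cells in both libraries entered 1 fit across all genes in edgeR 4.0.16 (R 4.3.3): TMM, a minimum of 10 counts in 2 or more sums, library as a blocking term, the quasi-likelihood test and Benjamini-Hochberg adjustment. The SE is the log2 fold change divided by the square root of F. The fit was tested on simulated data made with known changes. DESeq2 1.42.0 and other settings were tried as alternatives. Classes share libraries, so the pairing by library is given by the design.

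The members and lists were chosen with earlier results of these data known. Cytoskeleton genes are named where they are the up to 3 called in each direction with the largest change, at least 10 CPM and the same direction in both libraries.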

Additional observations from a re-analysis of the deposited data

Results flagged for a closer look

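*Tubb2b* differed between the progenitor classes in its change with cycling. In RGC-like cells it was at 1485 and 1325 CPM in cycling and 1178 and 1234 CPM in non-cycling cells, and in IPC-like cells at 729.6 and 912 CPM and 997 and 1048 CPM. The cycling effect in RGC-like minus that in IPC-like cells was 0.49 ± 0.12 on the log2 scale (SE, 2 libraries, edgeR, adjusted p = 0.0301). Both libraries went in the same direction in each class, but in both classes the change was larger in replicate 1 than in replicate 2. The *Tubb2b* call within each class ended in DESeq2, with no replicate block and with no doublets removed, and the difference itself was tested in no other setting.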

How the results depend on the processing

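Of 90 member results in 9 comparisons, 57 were called, and 35 of these kept their call and direction in every alternative run for them. The 2 libraries limit all of this, and single-library log2 ratios changed the sign of no called result. For the cycling comparisons a library could not be left out of a test, since no replicate would remain. Fits without a replicate in the compared classes were chosen after seeing the data and take the spread from the other classes, so the lone sum is assumed to vary like them. They gave 1 to 2 member calls for deep against upper layers and 2 to 3 for MGE against layer neurons, and 29 to 31 calls among the other cytoskeleton genes for IPCs against RGCs, 24 to 27 for upper-layer against newborn neurons, 9 to 13 for deep against upper layers, 23 in both for MGE against layer neurons and 3 to 7 for MGE against CGE. Without the replicate block, 4 members and 18 other genes were called for cycling RGCs (as reported 7 and 28) and 1 member for cycling IPCs (4 as reported). DESeq2 gave 1 and 8 for cycling RGCs and 1 and 11 for cycling IPCs (36 other genes as reported). With no doublets removed there were 3 members for cycling RGCs and 9 other genes for cycling IPCs. For deep against upper layers (3 members and 19 other genes as reported), size factors gave 5 members, only the compared classes 6 and 42, and marker gates 7 and 33. For MGE against CGE (0 and 9), only the compared classes gave 4 and 19, and marker gates 2 and 20.

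Directions turned as follows, as log2 fold changes. For IPCs against RGCs, *Tuba1a* was -0.058 in DESeq2, -0.058 with size factors, -0.027 with total UMIs, -0.031 without replicate 2 and -0.14 with no doublets removed. *Stmn2* was -0.030, -0.037 and -0.0074 in the first 3 of these, -0.035 without replicate 1 and -0.44 with no doublets removed, where *Mapt* was -0.11. For deep against upper layers, marker gates gave -0.10 for *Dclk1*, -0.16 for *Tubb2a*, -0.44 for *Map1b*, -0.18 for *Map2*, -0.39 for *Mapt* and -0.43 for *Stmn2*, and DESeq2 and size factors gave 0.026 and 0.026 for *Dcx*, 0.033 and 0.033 for *Tubb2b* and 0.051 and 0.051 for *Tubb3*. For MGE against CGE, *Dcx* was 0.057 with no filter and 0.00057 without replicate 1, *Dclk1* 0.050 with gates and *Map1b* -0.0077 with only the compared classes. For cycling IPCs, *Dclk1* was 0.034 and *Stmn2* 0.016 with cycle scores kept, and with no doublets removed *Dclk1* was 0.040 and *Tuba1a*, there called as lower, -0.36. Of these results, *Mapt*, *Dclk1* and *Tubb2a* had been called as reported. The causes were not tested. The median of all genes moved by over 0.1 for IPCs against RGCs with size factors (-0.10) and in DESeq2 (-0.11), for deep against upper layers in DESeq2 (0.10) and for layer neurons against RGCs with total UMIs (-0.14).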
